A study of Rattus norvegicus with 8 samples.

Results

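Regulators of G protein signalling (RGS) were examined in the hypothalamus of rats exposed to cannabis vapor, through 10 genes chosen by symbol: Rgs2, Rgs4, Rgs6, Rgs7, Rgs8, Rgs9, Rgs12, Rgs14, Rgs16 and Rgs17. These 10 genes, of the 18003 gene symbols in the files, held 67 of the 98356 alternative polyadenylation (APA) sites. Adult male Long-Evans rats with free access to food inhaled vapor of whole-plant cannabis during a 10 min session (cannabis, n = 4) or received air from the same kind of vaporizer left unfilled (air control, n = 4). Both groups had been habituated to the chambers, and food was withheld in the hour before the hypothalamus was micro-dissected, 1 hr after exposure. The labels give the air controls as replicates 1, 2, 3 and 4 and the cannabis-exposed rats as replicates 1, 2, 3 and 5, and these orders hold wherever values are listed below.

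RGS proteins end the signal of G protein-coupled receptors. The receptor loads a G protein alpha subunit with GTP, and the RGS domain speeds the hydrolysis of that GTP, which returns the G protein to its resting form. In the brain these proteins limit signalling through opioid, dopamine, muscarinic and cannabinoid receptors, the last of which couple mainly to Gi and Go. The R4 subfamily (Rgs2, Rgs4, Rgs8, Rgs16) consists of small proteins, and several of its genes respond to neuronal activity. The R7 subfamily (Rgs6, Rgs7, Rgs9) works as a complex with the G protein beta 5 subunit. The R12 subfamily (Rgs12, Rgs14) has further domains, including one that binds Gi alpha subunits, and Rgs17 belongs to the RZ subfamily.

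In whole transcriptome termini site sequencing (WTTS-Seq), each read is taken to start at the 3′ end of a polyadenylated RNA. A read thus marks 1 predicted APA site, and counts need no division by transcript length. All values below are normalized counts, the reads on a site divided by the size factor of its library, and a gene total is the sum over all sites with that symbol. The 8 libraries held 1159811 to 3706778 reads on sites, with the fewest in air control replicate 4, and 1 read was worth 0.664 to 1.99 normalized counts. The neuropeptide and transcription factor markers of hypothalamic neurons (8 of 9 measured) summed to 3231 to 5579 normalized counts in air controls and 7324 to 9397 in cannabis-exposed rats, so the tissue carried the markers of its label and the sums did not overlap. Avp (1952 ± 996.1 and 4934 ± 1383; SD, n = 4) and Oxt (596 ± 244 and 1193 ± 343) carried that gap: the other 6 markers summed to 1396 to 1720 and 1703 to 2372, which overlap, and Sim1 had the lower mean in cannabis-exposed rats (98.1 ± 59.7 and 76.7 ± 12.8). The sum of endothelial markers (3 of 3) was 81.1 to 88.0 and 93.0 to 115, without overlap. Flt1 had the higher mean in cannabis-exposed rats (71.0 ± 7.32 and 95.7 ± 12.7), with ranges that overlapped (60.7 to 77.9 and 77.1 to 105). Cldn5 and Pecam1 together had 10.1 to 20.47 and 3.94 to 15.9. Markers of striatum (4 of 5; 441 to 705 and 403 to 759), thalamus (3 of 3; 218 to 247 and 233 to 306), astrocytes (3 of 3; 2568 to 3436 and 2683 to 4239), oligodendrocytes (3 of 3; 35315 to 48490 and 28383 to 46107) and microglia (3 of 3; 417 to 602 and 426 to 553) overlapped between groups. Choroid plexus (2 of 3; 0 to 19.2 and 3.73 to 28.6) and pituitary markers (1 of 3; 11.4 to 122 and 2.95 to 92.3) did as well. The part of these cell types in the RGS values was not tested. In bulk tissue, fewer cells of a type and less RNA per cell cannot be told apart.

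All 10 genes were detected in all 8 libraries. Rgs7, whose product is a main brain partner of G protein beta 5, had the highest total, 302.9 ± 46.2 normalized counts (SD, n = 8), above 93.6% of all gene totals. Rgs17 followed with 213 ± 66.5, Rgs8 with 199 ± 31.3, Rgs2 with 149.6 ± 27.3, Rgs4 with 121 ± 29.0 and Rgs9 with 92.0 ± 26.6. The remaining genes were lower: Rgs12 had 41.2 ± 13.01, Rgs14 25.5 ± 10.4, Rgs16 24.3 ± 11.5 and Rgs6 19.7 ± 5.42. The levels thus spanned 15.4-fold from Rgs6 to Rgs7, with members of the R4 and R7 subfamilies at both ends. Between neighbours in this order, only Rgs9 and Rgs12 had ranges that did not overlap, with Rgs9 higher in 8 of 8 libraries. Rgs14 was higher than Rgs16 in 4 of 8 libraries and Rgs16 higher than Rgs6 in 5 of 8, so the lowest genes had no fixed order.

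**Figure D1:**
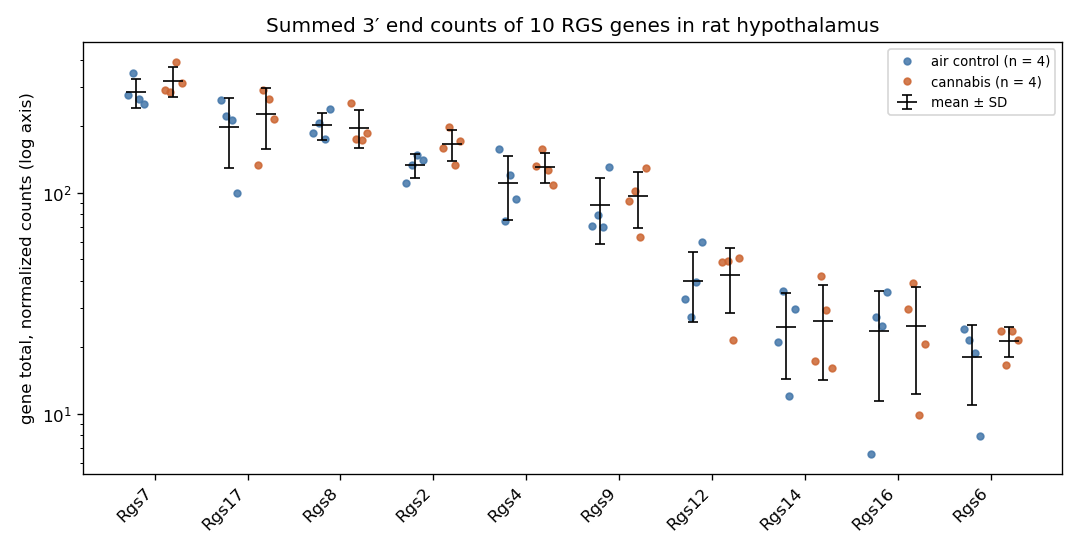
Gene totals of the 10 RGS genes in normalized counts on a log axis, 1 point per library (blue, air control; orange, cannabis) with mean ± SD (n = 4 per group), genes in order of mean. The points of both groups overlap for each gene, and the totals fall from 302.9 for Rgs7 to 19.7 for Rgs6.

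Depth followed level. A library held 127 to 428 reads of Rgs7 but 4 to 33 of Rgs6, 9 to 59 of Rgs16 and 14 to 63 of Rgs14. Some RGS genes neighbour each other in the RefSeq annotation of GRCr8, where all 10 symbols were matched. Rgs8 lies next to Rgs16, with mean totals of 199 and 24.3. Rgs2 lies next to Rgs13, which held 0 to 3.99 normalized counts in each library. Rgs4 lies next to Rgs5, and their mean totals were closer, 121 and 99.1.

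The comparison of cannabis with air control asked whether the RNA of these regulators differed 1 hr after exposure. No RGS gene total passed the threshold of P under 0.01 that the study used, and none had P under 0.05, in limma, edgeR or DESeq2, against 0.278% of all gene totals at P under 0.01 and 2.41% at P under 0.05 in limma. Of the 10 gene totals, 9 had a higher and 1 a lower mean log2 value in cannabis-exposed rats, with a median log2 fold change of 0.15. The sign of 7 of the 10 (Rgs6, Rgs8, Rgs9, Rgs12, Rgs14, Rgs16 and Rgs17) turned on leaving out at least 1 single library. Over all 18003 gene totals the median was 0.05 and 56.4% were higher. Among the 3654 gene totals with a mean of at least 100, the median was 0.07 and 63.1% were higher. None of the 10 totals separated the groups without overlap, against 1.98% of all gene totals. Fold changes were taken on log2(value + 1), which understates the change of low genes. No RGS gene had an adjusted P under 0.1, which 0.00555% of all gene totals had, and the adjusted P from limma with Benjamini-Hochberg adjustment was 0.999 for each of the 10.

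The 10 totals added together came to 1149, 1174, 1086 and 1088 normalized counts in air controls and 1183, 1358, 1239 and 1235 in cannabis-exposed rats, or 1125 ± 44.2 and 1254 ± 73.8 (SD, n = 4). The lowest cannabis library stood just above the highest control. The difference of the means of log2 values was 0.16, with a pooled SD between libraries of 0.07 on that scale. The groups overlapped when libraries were scaled to equal totals (highest control 1184, lowest cannabis library 1163) or by TMM factors (1209 and 1182). The sum was not tested, since its genes were chosen with earlier results known. Avp and Oxt carried the gap in the hypothalamic neuron markers. They summed to 1549 to 3971 in air controls and 4952 to 7378 in cannabis-exposed rats. Of the endothelial markers, Flt1 also had a higher mean, while Cldn5 (6.25 and 4.32) and Pecam1 (8.46 and 6.30) had lower ones. The part of these cells in the RGS sum was not tested.

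Among the R4 genes, Rgs2 acts mainly on Gq and is rapidly induced in many cells. Its total was 110.4, 133, 148 and 141 in air controls and 159, 199, 134 and 172 in cannabis-exposed rats. Cannabis replicate 3 lay among the controls, and the other cannabis libraries lay above all of them. The log2 fold change was 0.31 with a 95% confidence interval of -0.14 to 0.76 (standard error 0.21), with P = 0.165 in limma and 0.0857 in the exact permutation test. The exact two-sided permutation test used the log2 values of 4 against 4 rats, and the smallest P it can give is 0.0286, so it cannot reach 0.01.

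Rgs4, which acts on Gi and Gq in neurons, had totals of 157, 74.2, 120.2 and 93.3 in air controls and 132, 157, 127 and 108 in cannabis-exposed rats. Air control replicate 1 was as high as the highest cannabis library, and the groups overlapped (log2 fold change 0.28, standard error 0.26, exact permutation P = 0.314). Rgs8, a brain-enriched regulator of Gi and Go, was the only member with a lower estimate in cannabis-exposed rats in limma, edgeR and DESeq2, and its sign turned under a replicate block and without air control replicate 4 or cannabis replicate 2 or 3 (0.066, 0.044, 0.010 and 0.016). Its totals were 186, 207, 175 and 238 in air controls and 255, 175, 173 and 186 in cannabis-exposed rats, and its log2 fold change was -0.04 (95% confidence interval -0.49 to 0.41, exact permutation P = 0.771). The highest and the lowest Rgs8 total were both in cannabis libraries. Rgs16, which regulates Gi and Gq and is known for its rhythm in the hypothalamic suprachiasmatic nucleus, ranged from 6.58 in air control replicate 1 to 39.2 in cannabis replicate 2. Its means were 23.7 ± 12.3 and 24.9 ± 12.5 (SD, n = 4), and its interval for the fold was the widest of the 10, from 0.503 to 2.37.

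Among the R7 genes, Rgs7 totals were 277, 347, 265 and 252 in air controls and 293, 284, 391 and 314 in cannabis-exposed rats. Cannabis replicate 3 was the highest library and air control replicate 4 the lowest, and the groups overlapped (log2 fold change 0.17, standard error 0.20, exact permutation P = 0.286). The 95% confidence interval of the fold ran from 0.836 to 1.51. Rgs9, best known from the striatum and the retina, had totals of 70.9, 79.0, 69.8 and 131 in air controls and 91.9, 101.6, 63.0 and 129 in cannabis-exposed rats. The highest value lay in a control and the lowest in a cannabis library (log2 fold change 0.14, standard error 0.28, exact permutation P = 0.6). Rgs6, a regulator of muscarinic and GABA-B signalling, had 24.1, 21.5, 18.8 and 7.94 in air controls and 23.6, 16.6, 23.6 and 21.5 in cannabis-exposed rats. Its lowest value came from 4 reads in air control replicate 4, and its log2 fold change was 0.31 (standard error 0.38, exact permutation P = 0.629). Without that library the log2 fold change was -0.016, and with the replicate block it was -0.024.

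The R12 genes had 39.9 ± 14.0 and 42.5 ± 13.9 normalized counts for Rgs12 and 24.7 ± 10.4 and 26.2 ± 12.04 for Rgs14 (SD, n = 4, air control and cannabis). Rgs12, a large scaffold protein, ranged from 27.5 to 59.6 in air controls and from 21.6 to 50.7 in cannabis-exposed rats. Rgs14, known for limiting plasticity in hippocampal area CA2, ranged from 12.1 to 35.9 and from 16.1 to 41.8. Neither gene differed beyond the spread between libraries (log2 fold changes 0.07 and 0.08, exact permutation P = 0.857 and 0.886). Rgs17, a regulator of Gi, Gz and mu-opioid receptor signalling, had the widest spread in absolute counts. Its totals were 262, 221, 214 and 99.3 in air controls and 134, 293, 267 and 217 in cannabis-exposed rats (log2 fold change 0.22, standard error 0.32, exact permutation P = 0.543). Air control replicate 4 and cannabis replicate 1 were the lowest libraries of their groups. The log2 fold change turned to -0.084 without air control replicate 4 and to -0.081 with the replicate block.

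**Figure D2:**
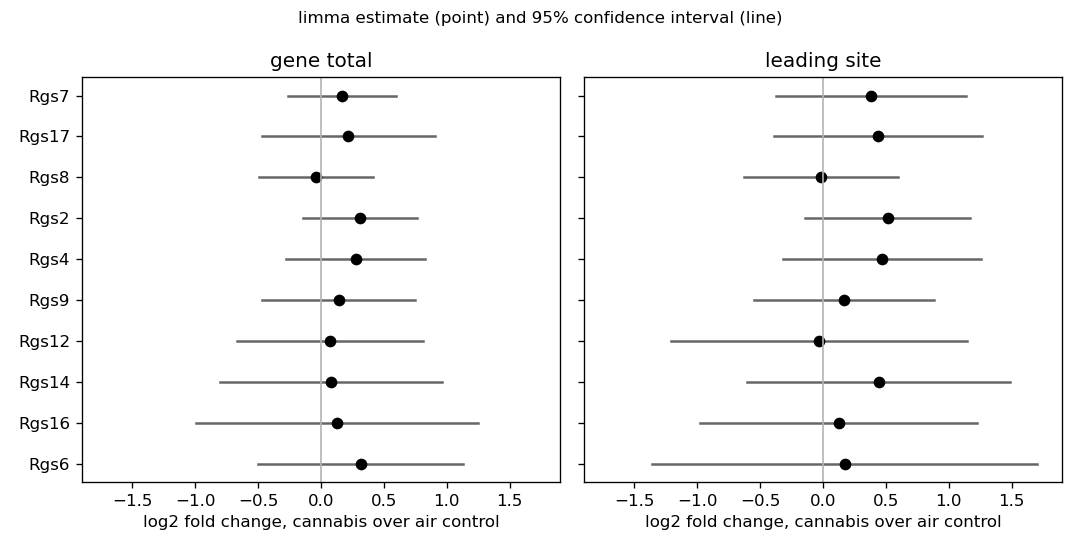
Log2 fold change of cannabis over air control from limma (points) with 95% confidence intervals (lines) for the gene total (left) and for the site with the highest mean of each gene (right), n = 4 per group. Each interval includes 0, and the estimates for gene totals run from -0.04 for Rgs8 to 0.31 for Rgs2 and Rgs6.

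The genes differed in how their 3′ ends were divided over APA sites. Sites are numbered within a gene from the highest mean over the 8 libraries. Rgs7 had 25 sites, Rgs17 had 12, Rgs6 had 7, Rgs8 had 6 and Rgs12 had 5. Rgs2, Rgs4 and Rgs9 had 3 each, Rgs14 had 2 and Rgs16 had 1. Of the 67 sites, 20 had a mean of at least 10 normalized counts and 47 less, 32 had at least 1 library without a read, and the median number of reads per site, summed over libraries, was 44.

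In Rgs8 and Rgs9, 1 site held nearly all 3′ ends. Rgs8 site 1, which lies in the distal region of the gene, held 83.7 to 96.3% of the gene total in each library, and Rgs9 site 1 held 81.8 to 98.6%. Rgs2 site 1 held 62.0 to 94.2%, Rgs17 site 1 held 48.0 to 73.7% and Rgs7 site 1 held 25.4 to 57.5%, and each was the highest site of its gene in 8 of 8 libraries. No single site led in Rgs4, Rgs6, Rgs12 and Rgs14. Their site 1 was the highest in 5, 5, 4 and 4 of 8 libraries. For Rgs4, site 1 had 46.1, 39.5, 77.2 and 33.8 in air controls and 52.2, 81.7, 77.7 and 53.8 in cannabis-exposed rats. Rgs4 site 2 had 106.7, 27.5, 33.6 and 51.6 in air controls and 74.5, 61.8, 32.5 and 47.6 in cannabis-exposed rats. Which of these Rgs4 sites was higher thus varied within both groups.

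**Figure D3:**
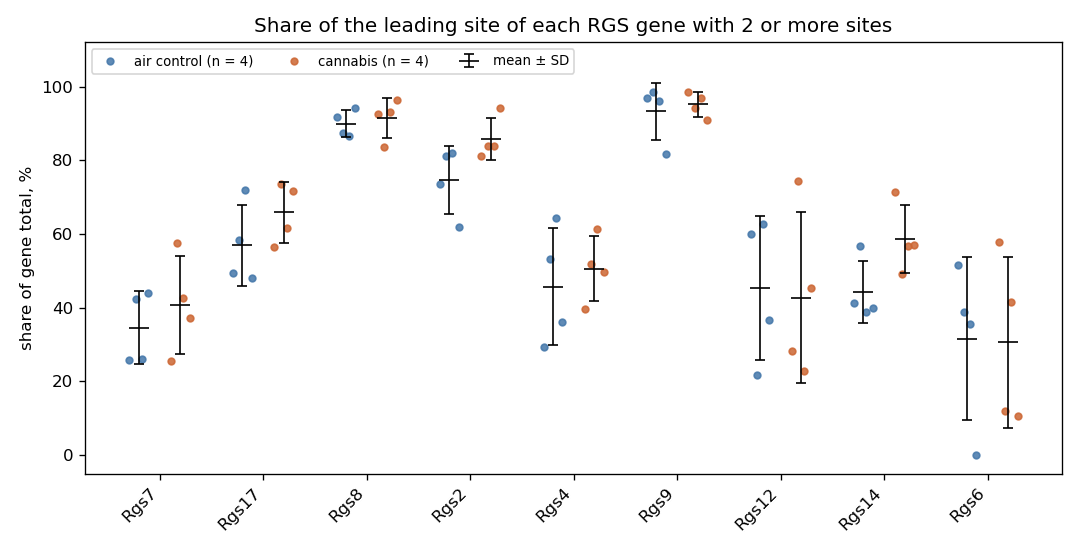
Share of the gene total held by site 1, in percent, for the 9 RGS genes with 2 or more sites, 1 point per library (blue, air control; orange, cannabis) with mean ± SD (n = 4 per group). Rgs8 and Rgs9 stay above 81% in each library, while Rgs12 and Rgs6 spread widely within both groups.

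At the level of single sites, no RGS site passed P under 0.01 in limma, against 0.381% of all sites. By edgeR and DESeq2 on the recovered reads, 2 and 1 of the 67 passed, against 0.526% and 0.316% of all sites. These were Rgs7 sites 17 and 19 with the former and site 17 with the latter. P under 0.05 in limma was reached by 5 of the 67 (7.46%), against 3.03% of all sites. These 5 had means of 1.80 to 3.11 normalized counts over the 8 libraries, and each rested on few reads. Rgs7 site 17 is among them, and the study chose it on these libraries. The counts that include it are not independent of that choice. None had an adjusted P under 0.1, which 0.00102% of all sites had. The estimate was above 0 for 43 of the 67 and below 0 for 24, with a median log2 fold change of 0.09 against 0.01 over all sites. The balance was 37 to 30 with edgeR and turned to 31 above and 36 below 0 without air control replicate 4, and to the same counts with the replicate number as a block (medians -0.07 and -0.04). Rgs7 had 18 sites higher and 7 lower, Rgs6 6 and 1, and Rgs17 6 and 6. Sites of 1 gene share its RNA and are not independent.

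The ranges of the groups overlapped at the leading site of each gene, with Rgs2 site 1 given further below. Rgs7 site 1 had 71.6, 147, 69.2 and 111 normalized counts in air controls and 74.5, 163, 166 and 117 in cannabis-exposed rats (log2 fold change 0.38, exact permutation P = 0.257). Rgs17 site 1 had 129, 129, 154 and 47.7 in air controls and 75.8, 216, 164 and 155 in cannabis-exposed rats (log2 fold change 0.44, exact permutation P = 0.429). At both sites the ranges of the groups overlapped, and cannabis replicate 1 was the lowest cannabis library. Rgs8 site 1 ran from 151 to 224 in air controls and from 147 to 236 in cannabis-exposed rats (log2 fold change -0.02, exact permutation P = 0.914), and Rgs9 site 1 from 67.1 to 107 and from 61.0 to 118 (0.17, P = 0.514 by the same test). The log2 fold change of Rgs4 site 1 was 0.47 (exact permutation P = 0.143). For the low leading sites of Rgs6, Rgs12 and Rgs14 the log2 fold changes were 0.17, -0.03 and 0.44 (exact permutation P = 0.8286, 0.943 and 0.343).

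Rgs2 site 1 had 81.1, 108, 122 and 87.4 normalized counts in air controls and 129, 167, 112.2 and 162 in cannabis-exposed rats. All but cannabis replicate 3 lay above the 4 controls. The means were 99.4 ± 18.6 and 143 ± 26.5 (SD, n = 4), and the log2 fold change was 0.52 (standard error 0.32), with P = 0.117 in limma and 0.0571 in the exact permutation test. Its share of Rgs2 was 73.5, 81.1, 81.9 and 62.0% in air controls and 81.2, 84.0, 83.8 and 94.2% in cannabis-exposed rats. The shares overlapped only through the value of cannabis replicate 1, which lay below that of air control replicate 3. Rgs2 site 2 was the counterpart, with 25.6, 13.2, 11.4 and 43.7 normalized counts in air controls and 14.9, 15.9, 10.8 and 1.54 in cannabis-exposed rats. In the fit of shares, where a site is set against the rest of its gene, the log2 difference was 1.08 for site 1 and -1.68 for site 2. Neither passed 0.01, with P = 0.0529 and 0.0273 in limma, and 0.0571 and 0.114 in the exact permutation test on the share in percent.

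**Figure D4:**
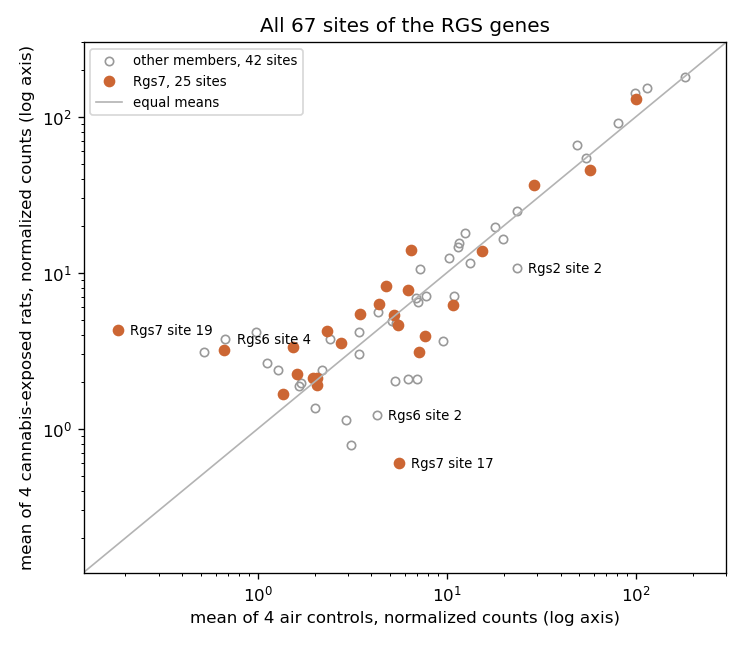
Mean of the 4 cannabis-exposed rats against the mean of the 4 air controls for each of the 67 RGS sites, in normalized counts on log axes (filled orange, the 25 sites of Rgs7; open grey, the other 42 sites; line, equal means). Sites with high counts lie near the line, and the sites farthest from it, Rgs7 sites 17 and 19, have group means under 6.

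Over shares, 1 of the 66 RGS sites in genes with 2 or more sites passed P under 0.01 in limma, against 0.389% of all such sites. P under 0.05 in limma was reached by 5 (7.58%), Rgs7 site 17 among them, against 3.08%. The site that passed 0.01 was Rgs6 site 2. It had 2.92, 4.79, 3.36 and 5.96 normalized counts in air controls, from 3 to 5 reads each, and 0, 0, 4.92 and 0 in cannabis-exposed rats, where the value of replicate 3 came from 5 reads. Its share of Rgs6 was 12.1, 22.2, 17.9 and 75.0% in air controls, the last being 3 of 4 reads, and 0, 0, 20.8 and 0% in cannabis-exposed rats. A count of 0 allows a share of up to 15.8, 12 and 10.7% in those 3 libraries, so the lower control shares were near what this depth could show. The log2 difference of the share was -2.54 (standard error 0.86), with P = 0.00829 in limma but 0.0857 in the exact permutation test on the share in percent. The adjusted P in limma was 0.9998. The call depended on single libraries. The value of P in limma became 0.0123 or 0.0401 on leaving out air control replicate 2 or 4, and 0.0262, 0.023 or 0.0273 on leaving out cannabis replicate 1, 2 or 5. Rgs6 site 4 ran the other way, with 0, 0, 2.69 and 0 in air controls and 2.48, 3.32, 3.94 and 5.38 in cannabis-exposed rats. Its value had a log2 fold change of 1.75 and its share a log2 difference of 1.66. In limma its P values were 0.0145 and 0.0346, so neither passed 0.01, and the exact permutation test gave 0.0571 for both.

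Groups without overlap were found at 2 of the 67 sites (2.99%), against 2% of all sites, and in 1 of 66 shares (1.52%), against 2.05%. Both sites belong to Rgs7. Site 17 is the intronic Rgs7 site that the study chose on these libraries, so its direction and its place in these counts are no independent result. It had 8, 1, 17 and 2 reads in air controls and 0, 1, 1 and 1 in cannabis-exposed rats, or 5.85, 1.20, 11.4 and 3.97 against 0, 0.664, 0.984 and 0.768 normalized counts. Air control replicate 2 and 3 cannabis libraries each held 1 read, and they differ in normalized counts only by what 1 read is worth. With 28 reads in the controls and 3 in the cannabis-exposed rats, the level was 0.0971 times that of the controls (exact 95% interval 0.0189 to 0.314, for counting error only).

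The log2 fold change of Rgs7 site 17 was -1.83 (standard error 0.65), and its P in limma was 0.0100004, just above the threshold. It was 0.00322 with edgeR, 0.00761 with DESeq2, 0.00653 without limma's mean-variance trend and 0.00267 in limma without air control replicate 2, but 0.0639 without air control replicate 3, which held 17 of the 28 control reads. The site made up 2.11, 0.345, 4.31 and 1.57% of Rgs7 in air controls and 0, 0.234, 0.252 and 0.244% in cannabis-exposed rats. Each cannabis value came from at most 1 read, and a count of 0 among the 236 Rgs7 reads of cannabis replicate 1 allows a share of up to 1.27%. The share fit gave a log2 difference of -2.02 with P = 0.0105 in limma, and an exact permutation test of the percentages gave the smallest P it can, 0.0286. In limma the share passed 0.01 without air control replicate 2, where its P became 0.00214, and P became 0.052 without air control replicate 3. Site 17 held a small part of the gene in all libraries, and the Rgs7 total had a higher mean in the cannabis-exposed rats.

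Rgs7 site 19 ran the other way, with 1, 0, 0 and 0 reads in air controls and 7, 2, 1 and 8 in cannabis-exposed rats. Here too a single read in a control and a single read in cannabis replicate 3 kept the groups apart. The ratio of cannabis to air control was 16.3 (exact 95% interval 2.58 to 679.9, for counting error only), and limma gave a log2 fold change of 1.88 (P = 0.015) for the value and 1.73 (P = 0.0342) for the share. Rgs9 site 3, the remaining site with P under 0.05, had 3 reads in the controls and 16 in the cannabis-exposed rats, a ratio of 4.83 (exact 95% interval 1.38 to 25.9, for counting error only; P = 0.0464 from limma).

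Genes around the RGS cycle were read from further lists. Of 11 other RGS genes, 7 were measured, and Rgs1, Rgs11, Rgs18 and Rgs21 were not analysed here. None passed P under 0.01 or 0.05 in limma, edgeR or DESeq2. Of all gene totals, 0.278% and 2.41% passed these thresholds in limma, which is the background for each list here. The other RGS genes had 3 higher and 4 lower in limma and 4 higher and 3 lower in edgeR and DESeq2. The highest of them, Rgs3, had 206 ± 19.2 in air controls and 199 ± 29.7 in cannabis-exposed rats (log2 fold change -0.06, exact permutation P = 0.6). Of 8 G protein alpha subunits of the Gi, Go, Gz and Gq classes, the substrates of RGS proteins, none passed either threshold in those tools. In limma 5 were higher and 3 lower, while in edgeR and DESeq2 3 were higher and 5 lower. Gnai2, a Gi alpha subunit and the highest of them, had 1730.0 ± 144 and 2039 ± 342 (log2 fold change 0.23, exact permutation P = 0.114).

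Of 5 partners of the R7 subfamily, 4 were measured (Rgs9bp was not analysed here), with 1 higher and 3 lower and none past either threshold in those tools. Gnb5, the obligate beta 5 partner, had 257 ± 79.3 in air controls and 218 ± 97.2 in cannabis-exposed rats (log2 fold change -0.30, exact permutation P = 0.457). Gpr158, a receptor that binds Rgs7 at the membrane, is named after its values were seen. It had 138, 151, 162 and 135 in air controls and 165, 173, 204 and 227 in cannabis-exposed rats, without overlap, as had 1.98% of all gene totals. The log2 fold change of Gpr158 was 0.38 (standard error 0.20). It misses the threshold in limma with P = 0.0766, and the smallest P that the exact permutation test can give, 0.0286, was reached.

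Among the 3653 other genes with a mean total of at least 100, Rfx3, Socs5 and Rbms2 had profiles over the 8 libraries most like that of Rgs7. Their root mean square differences from it, after centring log2 totals on each gene's own mean, were 0.083, 0.088 and 0.097. The median over all compared genes was 0.37, and a flat profile would have given 0.20. The 8 points share depth and scaling, and the match describes these libraries only.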

How the data were processed

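Per the labels, 8 WTTS-Seq libraries were analysed, 4 of each group. The paper names the tissue as hypothalamus, while the series description names its mediobasal part. The paper also gives 8 rats per group for this cohort, and each library is taken here as 1 rat. The authors mapped the reads to Rnor_6.0, grouped nearby read ends as APA sites where 16 or more reads fell, assigned these to genes and divided reads by a DESeq2 size factor. The deposited signal is this normalized count, 1 file per library, joined by row order. Reads were recovered from the value of 1 read in each library, and 100% of the values were whole within 0.01 reads. Sites without a gene symbol (12.1 to 16.1% of reads) stayed in the site fit only.

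Gene totals, sites and shares were fitted across all genes or sites with limma 3.58.1 (R 4.3.3; lmFit, eBayes with trend, two-sided) on log2(value + 1), and shares on log2((site + 1)/(rest of gene + 1)). Calls used P under 0.01, and adjusted P under 0.1 (Benjamini-Hochberg over all 18003 genes, 98356 sites or 57287 shares). edgeR 4.0.16 and DESeq2 1.42.0 on the recovered reads were alternatives, beside other pseudocounts (0.5 and 5), a mean of at least 10, equal totals, TMM factors, no trend, a replicate block and each library left out. The limma and edgeR fits were checked on simulated data with changes planted only at well-read sites. That check does not cover sites with few reads, and DESeq2 was not part of it. Exact permutation tests used all 70 splits of 4 against 4. A count of 0 was taken to allow up to 3 reads. Intervals and such limits cover counting error only, and reads carry no molecular identifiers. The labels do not say whether replicates shared a cage or day.

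The members and the lists were chosen with earlier results of these data known. Every member was named by its total, its site with the highest mean, its sites with P under 0.01 in a fit of sites or shares and the Rgs7 site the study lists. Sites with P under 0.05 and Rgs2 site 2 were named after their values were seen. Positions and location classes of the other sites were not used here. Tables and plots were made with Python 3.11.15, numpy 2.4.6, pandas 2.3.3 and matplotlib 3.10.9.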

Additional observations from a re-analysis of the deposited data

Results flagged for a closer look

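In groups of 4 libraries, 8 of 68 groups tested held a library whose gap to the others was above Dixon's critical value, and chance gives about 1 in 20 where values vary continuously. At 3 of the 8 the other libraries of the group were all at 0, where any read meets the criterion, so the count cannot be set against chance. The Rgs8 total of cannabis replicate 1 was 254.6 normalized counts, against 173 to 186 in the other cannabis libraries. The Rgs9 total of air control replicate 4 was 131, against 69.8 to 79.0. The Rgs12 total of cannabis replicate 3 was 21.6, against 48.4 to 50.7. Rgs9 site 1 held 81.8% of the gene in air control replicate 4, against 96.2 to 98.5% in the other controls. Rgs14 site 1 held 56.7% in air control replicate 2, against 38.9 to 41.4%. At those 3 sites 1 library had reads where the others of its group had none. Rgs6 site 4 had 2.69 normalized counts in air control replicate 3, Rgs6 site 2 had 4.92 in cannabis replicate 3, and Rgs7 site 19 had 0.731 in air control replicate 1. Air control replicate 4, which stood apart at Rgs9, had the fewest reads of the 8 libraries. The part of depth in these values was not tested.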

How the results depend on the processing

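No RGS gene total passed P under 0.01 under any alternative run, against 0.133 to 0.544% of all gene totals. The count of RGS sites at P under 0.01 was 0 in limma, 2 with edgeR, 1 with DESeq2 and 1 with a pseudocount of 5. It was 1 with equal library totals, 3 without the trend and 0 to 2 when libraries were left out singly. Over all sites the share was 0.526% with edgeR, 0.316% with DESeq2 and 0.377% with a pseudocount of 5. With equal library totals it was 0.405%, without the trend 0.451%, and 0.231 to 0.627% with libraries left out. Rgs7 site 17 passed without air control replicate 2, Rgs6 site 4 without air control replicate 3, Rgs7 site 19 without air control replicate 1 or cannabis replicate 2 or 3, and Rgs6 site 2 without cannabis replicate 3. The count of shares was 1 in limma, and 0 with a pseudocount of 5, with a mean of at least 10 and with the replicate block. In the latter settings 0.325, 0.273 and 0.253% of the shares tested passed. The count was 2 without the trend, against 0.442% of all shares. With each library left out it was 0 to 1, against 0.276 to 0.681% of all shares. Without air control replicate 2 the share that passed was Rgs7 site 17 in place of Rgs6 site 2. The log2 difference of the summed RGS counts was 0.14 to 0.19 under other scalings and 0.12 to 0.18 with each library left out. Calls over all genes, 50 here, ran from 24 with the replicate block to 98 without the trend. Those over all sites, 375, ran from 44 with a mean of at least 10 to 617 without air control replicate 3. Those over shares, 223, ran from 40 to 390 in the same settings. The filter on the mean kept only 22164 sites and 14643 shares, so its counts are of fewer features.

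Some estimates changed sign, among them the Rgs6 and Rgs17 totals, which turned without air control replicate 4 and with the replicate block. With edgeR the log2 fold change was -0.15 for Rgs6 site 1, 0.035 for Rgs8 site 1 and 0.16 for Rgs12 site 1, and with DESeq2 it was -0.11 for Rgs6 site 1 and 0.12 for Rgs12 site 1. With TMM factors it was 0.018 for Rgs8 site 1 and 0.0019 for Rgs12 site 1. When libraries were left out singly, the totals ran from -0.016 to 0.48 for Rgs6, -0.17 to 0.044 for Rgs8, -0.014 to 0.35 for Rgs9, -0.082 to 0.36 for Rgs12, -0.21 to 0.29 for Rgs14, -0.37 to 0.49 for Rgs16, -0.084 to 0.45 for Rgs17 and -0.15 to 0.0069 for Rgs3. Site 1 ran from -0.65 to 0.60 for Rgs6, -0.15 to 0.089 for Rgs8, -0.46 to 0.47 for Rgs12 and -0.37 to 0.49 for Rgs16, and its share from -0.036 to 0.66 for Rgs4, -0.83 to 0.31 for Rgs6, -0.41 to 0.60 for Rgs9 and -0.74 to 0.27 for Rgs12. The cause was not tested.

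Whether replicate numbers pair the libraries is not given by the labels, and 3 pairs with the same number are too few to settle it. Deviations from the group means correlated at -0.28 to 0.16 between the 3 pairs of libraries with the same number and at -0.56 to 0.67 between the 13 others. With the replicate number as a block, which leaves replicates 4 and 5 without a partner, the log2 fold change was -0.024 for the Rgs6 total, 0.066 for Rgs8, -0.081 for Rgs17, 0.14 for Gnb5 and 0.011 for Rgs3, -0.34 for Rgs6 site 1, 0.086 for Rgs8 site 1 and -0.10 for the share of Rgs9 site 1. Under that block no RGS gene total and no RGS site passed, against 0.133% of all gene totals and 0.233% of all sites. Rgs6 had only 4 to 33 reads per library, which limits the precision of its site values.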
